A study of Homo sapiens with 10 samples.

Results

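The 10 genes described here encode hepatocyte growth factor (HGF) and its receptor, the receptor chains for oncostatin M (OSM) and interleukin 6, and proteins that carry or dampen the signal inside the cell: MET, HGF, OSMR, LIFR, IL6ST, IL6R, JAK1, STAT3, SOCS3 and SOCS2. They were chosen by name, and all 10 were found among the 12125 genes of the table. The RNA came from H1, an established human embryonic stem cell line, differentiated towards hepatocyte-like cells over 21 days, with 1 library per sampled day: day 0 (untreated), days 1, 2 and 3 (Activin A), days 5 and 7 (FGF4 and BMP2), days 9, 11 and 13 (HGF and KGF), and day 21 (OSM). The day 0 cells were untreated and grown on Matrigel in mTeSR1. They then received 100 ng/ml Activin A for 3 days in RPMI with B27 lacking insulin, 20 ng/ml BMP2 with 30 ng/ml FGF4 for 4 days in RPMI with complete B27, 20 ng/ml HGF with KGF for 6 days in the same base, and 20 ng/ml OSM for 8 days in hepatocyte culture medium without EGF. The label of the day 13 library gives OSM, whereas in the scheme day 13 ends the HGF and KGF step, and the scheme was followed here.

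HGF is made mainly by mesenchymal cells of the liver and acts through MET, a receptor tyrosine kinase on hepatoblasts and hepatocytes that drives the ERK pathway among others. OSM belongs to the interleukin 6 family and drives fetal hepatocytes towards maturity. In human cells it binds IL6ST (gp130) paired either with LIFR, the type I receptor shared with LIF, or with OSMR, the type II receptor. Both pairs activate JAK kinases, chiefly JAK1, and then STAT3, whose targets in the liver include the acute phase genes, and SOCS3 dampens the signal in a negative feedback loop.

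With 1 library per day there is no replicate error and no test. Values are GC-normalized scores without a fixed unit, they are compared within a gene and never between genes, and only an average depth is stated for the libraries, so the depth of each is unknown. A gene was counted in a step when the larger of its values on the first and last day of that step was at least 50, and it was said to rise or fall when log2(value + 1) differed by at least 1, that is about 2-fold. Libraries of days 9 and 11, which shared the HGF and KGF medium, gave the spread used here between libraries, although time passed between them. Between these days the SD of the log2 difference was 0.70 for genes with a larger value of 10 to 50, 0.38 for 50 to 200 and 0.30 for 200 to 2000. Of all genes counted between days 9 and 11, 1.61% changed 2-fold, and none of the 7 counted among the 10 genes did. In bulk RNA, fewer cells of a type and less RNA per cell cannot be told apart.

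The labelled cell types were compared with marker genes. Summed over 6 hepatoblast and hepatocyte markers, the value was 121 on day 3, 28133 on day 7, 43620 on day 13 and 50097 on day 21. AFP and TTR stood at 18734, the ceiling of the table, on days 9 to 21, and so did the stromal gene COL1A2 on days 13 and 21, so the sums cannot follow these genes further. ALB, which encodes albumin of mature hepatocytes, was 168 on day 13 and 4866 on day 21. Genes of other cells rose as well from day 7 to 13. They were 9 of 10 stromal, 7 of 7 red blood cell and 4 of 4 endothelial markers counted, against 9.65% of all genes. All 7 red blood cell genes, DCN, PDGFRB, CDH5, TEK and TIE1 were counted only through their day 13 values. These counts are therefore not read against that share. THY1 and VWF were below 50 on both days and were not counted. The sum of 11 stromal markers was 5376 on day 7, 39491 on day 13 and 42127 on day 21, that of 7 red blood cell genes was 47, 5437 and 2724 on the same days, and that of 5 of 6 endothelial markers was 389, 1962 and 1250. Of 15 macrophage and leukocyte markers 3 were found, and their sum was 13, 74 and 525. The part of these cells in the values below was not tested.

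LIFR and OSMR, the alternative partners of IL6ST, lie next to each other on chromosome 5, and their values went opposite ways from day 7. In the intervals of the table LIFR (ENSG00000113594) spans 38475065 to 38595506 on the minus strand and OSMR (ENSG00000145623) 38845960 to 38886759 on the plus strand, with a gap of 250453 bases that held 0 other genes of the table. The build of these intervals is not named in the table. Because the neighbours diverged, the 250 bases before each RefSeq start site are shown for GRCh38.p14, read 5′ to 3′ on the strand of the gene, with capitals for the STAT-type motif TTCNNNGAA. LIFR has 3 such windows, at chr5:38595406-38595655, chr5:38557468-38557717 and chr5:38556647-38556896 on the minus strand, and OSMR has 1, at chr5:38845762-38846011 on the plus strand.
LIFR window 1: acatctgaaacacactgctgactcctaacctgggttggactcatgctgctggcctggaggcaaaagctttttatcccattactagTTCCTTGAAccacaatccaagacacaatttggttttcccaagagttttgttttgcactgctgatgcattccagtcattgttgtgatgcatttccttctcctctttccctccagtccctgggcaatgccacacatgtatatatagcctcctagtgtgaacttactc
LIFR window 2: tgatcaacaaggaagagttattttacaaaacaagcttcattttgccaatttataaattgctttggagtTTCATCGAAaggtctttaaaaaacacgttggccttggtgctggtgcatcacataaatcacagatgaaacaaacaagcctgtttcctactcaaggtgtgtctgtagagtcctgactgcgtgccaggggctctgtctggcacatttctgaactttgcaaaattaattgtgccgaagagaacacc
LIFR window 3: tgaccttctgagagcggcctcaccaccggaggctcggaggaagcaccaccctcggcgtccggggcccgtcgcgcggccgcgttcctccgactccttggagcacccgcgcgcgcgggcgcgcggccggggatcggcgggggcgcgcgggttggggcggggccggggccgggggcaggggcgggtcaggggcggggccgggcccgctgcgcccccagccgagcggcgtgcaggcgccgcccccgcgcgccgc
OSMR window: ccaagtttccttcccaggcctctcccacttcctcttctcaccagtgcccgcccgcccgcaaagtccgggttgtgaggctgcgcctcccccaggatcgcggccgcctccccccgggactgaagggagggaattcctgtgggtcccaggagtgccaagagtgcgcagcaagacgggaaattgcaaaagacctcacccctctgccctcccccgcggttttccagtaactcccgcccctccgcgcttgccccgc
The motif, which reads the same on both strands, starts 165 bases before the start site in the first LIFR window and 182 bases before it in the second, and was not in the third LIFR window or the OSMR window. Of the 35116 windows of this length in RefSeq, 6.57% held it. RefSeq windows were at hand for 9 of the 10 genes, 14 windows in all, and the 2 with the motif were those of LIFR. The 3 LIFR windows differed in composition: the first held 0 CpG and 45.2% GC, the second 4 CpG and 40.8% GC, and the third 44 CpG and 83.6% GC, against 17 CpG and 66.4% GC before OSMR and a median of 11 CpG over all windows. The table gives 1 value per gene, so the start site in use on each day is not known, and a match to a motif is a description of the sequence only.

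LIFR (the LIF receptor chain) rose to a peak in mid-course and then fell. Its value was 46 on day 0, 61 on day 1, 170 on day 2, 212 on day 3, 1214 on day 5, 3860 on day 7, 1278 on day 9, 918 on day 11, 488 on day 13 and 376 on day 21. It thus climbed through the Activin A and the FGF4 and BMP2 steps to a peak on day 7 that was 83.9 times the day 0 value, and each later library was lower than the one before it. The log2 difference was 2.18 from day 0 to 3 and 4.18 from day 3 to 7, and 1.64% of all genes counted rose as far in the second of them. On day 0 LIFR was below 50, so it was counted with Activin A through its day 3 value. From day 7 to 13 LIFR fell by 2.98 on the log2 scale, as far as or further than which 0.967% of genes fell, and from day 13 to 21 the difference was -0.38, within the 2-fold limit, but -1.29 with day 11 in place of day 13 and -1.14 with the mean of days 9, 11 and 13, both past it. The log2 difference was -1.59 from day 7 to 9 and -1.39 from day 9 to 13, both before any OSM by the scheme. The day 7 value lies in a narrow band of 3860 to 3868 shared by all libraries, so the height of the peak is known only as that level. LIFR-AS1 overlaps LIFR on the opposite strand by 51569 bases in GENCODE 29, and the library kit does not mark strand.

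OSMR, the other partner, which LIF does not use, was highest at the end of the OSM step. Its value was 8 on day 0, 14 on day 1, 61 on day 2, 38 on day 3, 34 on day 5, 13 on day 7, 18 on day 9, 20 on day 11, 32 on day 13 and 171 on day 21. Only days 2 and 21 reached 50, and day 21 stood 5.34 times above day 13 and 21.4 times above day 0. OSMR rose over the OSM step by a log2 difference of 2.38, and 1.5% of all genes counted rose as far. It entered that count only through its day 21 value, so the share is not read further. Its interval in the table covers 40.9% of the gene's span in GENCODE 29. RICTOR overlaps that full span on the opposite strand by 7678 bases, a figure that does not refer to the interval of the table.

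IL6ST encodes gp130, the chain that the receptors for OSM, LIF and interleukin 6 share. Its value was 24 on day 0, 32 on day 1, 47 on day 2, 82 on day 3, 258 on day 5, 805 on day 7, 756 on day 9, 1250 on day 11, 1158 on day 13 and 2638 on day 21. It was lowest in stem cells and highest at the end, with neighbouring values on days 7 and 9 and on days 11 and 13 that were nearly the same. IL6ST rose in 3 of the 4 steps, by 1.73 with Activin A, 3.28 with FGF4 and BMP2 and 1.19 with OSM on the log2 scale, while the HGF and KGF step gave 0.52. The shares of all genes that rose as far were 2.6% with FGF4 and BMP2 and 6.35% with OSM, and with Activin A IL6ST was counted only through its day 3 value. The day 21 value lies in a band of 2636 to 2643 shared between libraries. IL6ST (ENSG00000134352) is listed at 55230923 to 55290772 on the minus strand of chromosome 5.

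Set against day 7, the 3 chains parted. By day 21 OSMR had risen by 3.62 and IL6ST by 1.71 on the log2 scale, and LIFR had fallen by 3.36 (log2 difference of -3.36). The log2 difference of LIFR minus OSMR, followed within this pair only as a change over time, was 8.11 on day 7, 3.89 on day 13 and 1.13 on day 21. On day 0 it had been 2.38, so the pair on day 21 stood nearer to its stem cell balance than to that of day 7, with both values higher than on day 0.

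**Figure D1:**
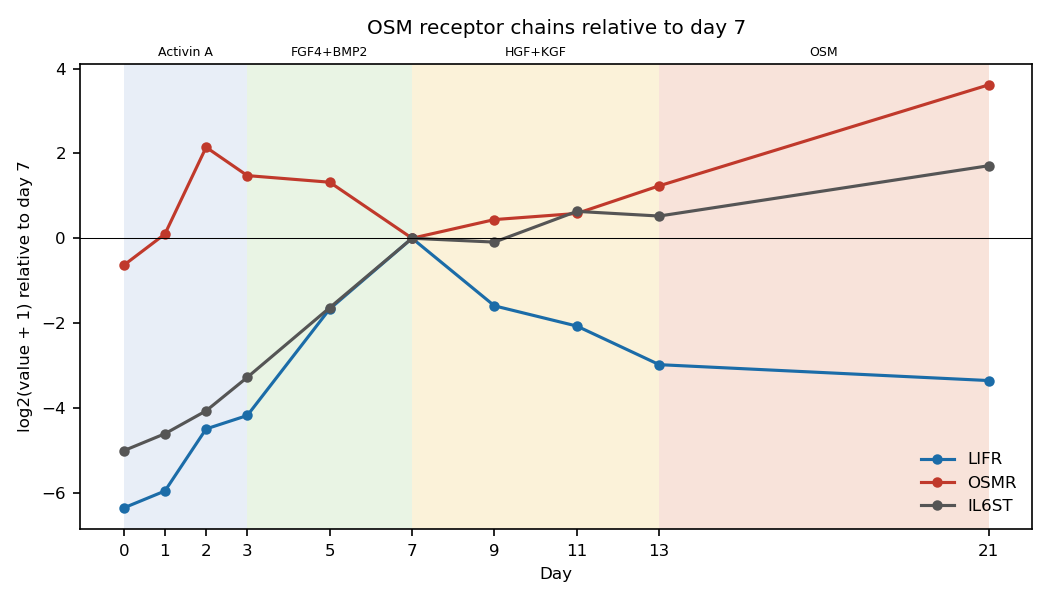
Log2(value + 1) of LIFR, OSMR and IL6ST minus the day 7 value of the same gene (vertical axis) by day of culture (horizontal axis), 1 library per point, shaded by culture step. On day 21 LIFR ends at -3.36, OSMR at 3.62 and IL6ST at 1.71.

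IL6R, the interleukin 6 receptor that pairs with gp130 but does not bind OSM, is listed at 154377669 to 154441926 on the plus strand of chromosome 1 (ENSG00000160712). Its value was 16 on day 0, 18 on day 1, 20 on day 2, 22 on day 3, 18 on day 5, 91 on day 7, 78 on day 9, 128 on day 11, 155 on day 13 and 268 on day 21. It stayed at or below 22 to day 5 and was above 50 from day 7 on. IL6R rose from day 3 to 7 by a log2 difference of 2.00 and was counted there only through its day 7 value. Its differences in the HGF and KGF step, 0.76, and in the OSM step, 0.79, stayed under 2-fold each, and its day 21 value was 2.95 times that of day 7.

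MET, the HGF receptor, was low on nearly every day. Its value was 37 on day 0, 22 on day 1, 12 on day 2, 9 on day 3, 2 on day 5, 12 on day 7, 26 on day 9, 26 on day 11, 16 on day 13 and 69 on day 21. The lowest value was on day 5, the values under HGF and KGF from day 9 to 13 were all below that of stem cells, and only day 21 exceeded 50. From day 7 to 13 the log2 difference was 0.39 between values under 50, less than the SD of 0.70 for such genes, but with day 11 in place of day 13 it was 1.05, above that SD. From day 13 to 21, without added HGF by the scheme, MET rose by 2.04, and 2.09% of all genes counted rose as far. As for OSMR, the day 21 value alone brought it into that count, so the share is not read further. Against day 11 the difference of MET was 1.37. MET (ENSG00000105976) is listed on the plus strand of chromosome 7 from 116312248 to 116339675, 27428 bases or 21.8% of the span in GENCODE 29, so the value may describe part of the gene only.

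HGF itself, the gene of the ligand added to the medium, never reached 50. Its value was 4 on day 0, 6 on day 1, listed at 0 on day 2, 4 on day 3, listed at 0 on day 5, 4 on day 7, 3 on day 9, 22 on day 11, 30 on day 13 and 36 on day 21. The 3 last days lay above all earlier ones, although none passed the minimum for a call. The stromal marker sum was 19238 on day 9, 21639 on day 11 and 39491 on day 13, and DCN, a stromal gene, was 9 on day 7, 80 on day 9, 320 on day 11 and 2802 on days 13 and 21. Whether these cells carried the HGF transcripts was not tested. HGF (ENSG00000019991) is listed at 81328322 to 81399514 on the minus strand of chromosome 7.

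JAK1, the kinase bound to the receptor chains, was above 50 on every day. Its value was 141 on day 0, 83 on day 1, 108 on day 2, 78 on day 3, 65 on day 5, 118 on day 7, 172 on day 9, 218 on day 11, 290 on day 13 and 334 on day 21. It was lowest on day 5 and higher on each later day than on the one before. Over the HGF and KGF step JAK1 rose by a log2 difference of 1.29, and 6.71% of genes counted rose as far. That call ended when day 11 replaced day 13, where the difference was 0.88. The OSM step added 0.20, less than the SD of 0.30 between days 9 and 11. JAK1 (ENSG00000162434) is listed on chromosome 1, minus strand, at 65298912 to 65432187.

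STAT3, the transcription factor at the end of this pathway, fell and then recovered. Its value was 312 on day 0, 316 on day 1, 282 on day 2, 172 on day 3, 80 on day 5, 62 on day 7, 99 on day 9, 142 on day 11, 189 on day 13 and 396 on day 21. It was lowest on day 7, the day on which LIFR was highest, and day 21 was 1.27 times day 0. STAT3 fell by 1.46 on the log2 scale from day 3 to 7, rose by 1.59 from day 7 to 13 and rose by 1.06 from day 13 to 21. The shares of genes that moved as far in the same direction were 7.49%, 4.55% and 7.6%. STAT3 transcript was thus rising before OSM by the scheme. It is listed at 40465342 to 40540405 on the minus strand of chromosome 17 (ENSG00000168610). These are transcript levels, and phosphorylation, by which JAK kinases activate STAT3, was not measured.

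SOCS3, which binds gp130 and JAK1 and blocks the signal, and SOCS2, which dampens growth hormone signalling above all, both peaked on day 5. SOCS3 was 86 on day 0, 108 on day 1, 128 on day 2, 147 on day 3, 342 on day 5, 228 on day 7, 152 on day 9, 134 on day 11, 102 on day 13 and 184 on day 21. SOCS2 was 67 on day 0, 94 on day 1, 134 on day 2, 153 on day 3, 193 on day 5, 116 on day 7, 80 on day 9, 56 on day 11, 59 on day 13 and 84 on day 21. Both climbed on each sampled day to day 5, came down through the HGF and KGF step and were higher on day 21 than on day 13. SOCS2 rose with Activin A by a log2 difference of 1.18, as did 8.82% of genes as far, and its fall from day 7 to 13, at -0.96, stayed just under 2-fold but passed it with day 11 in place of day 13, at -1.04. SOCS3 fell by 1.15 from day 7 to 13, as far as 6.11% of genes, and against day 11 the difference was -0.76 and no longer passed. Over the OSM step SOCS3 gave 0.84 and SOCS2 0.50, neither of them 2-fold. By the scheme day 21 is the only library under OSM, so earlier values in that medium are not known. SOCS3 (ENSG00000184557) lies at 76352864 to 76356158 on the minus strand of chromosome 17. SOCS2 (ENSG00000120833) lies at 93963590 to 93970521 on the plus strand of chromosome 12, which covers 50.7% of its GENCODE 29 span. SOCS2-AS1 overlaps that full span over 1955 bases.

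**Figure D2:**
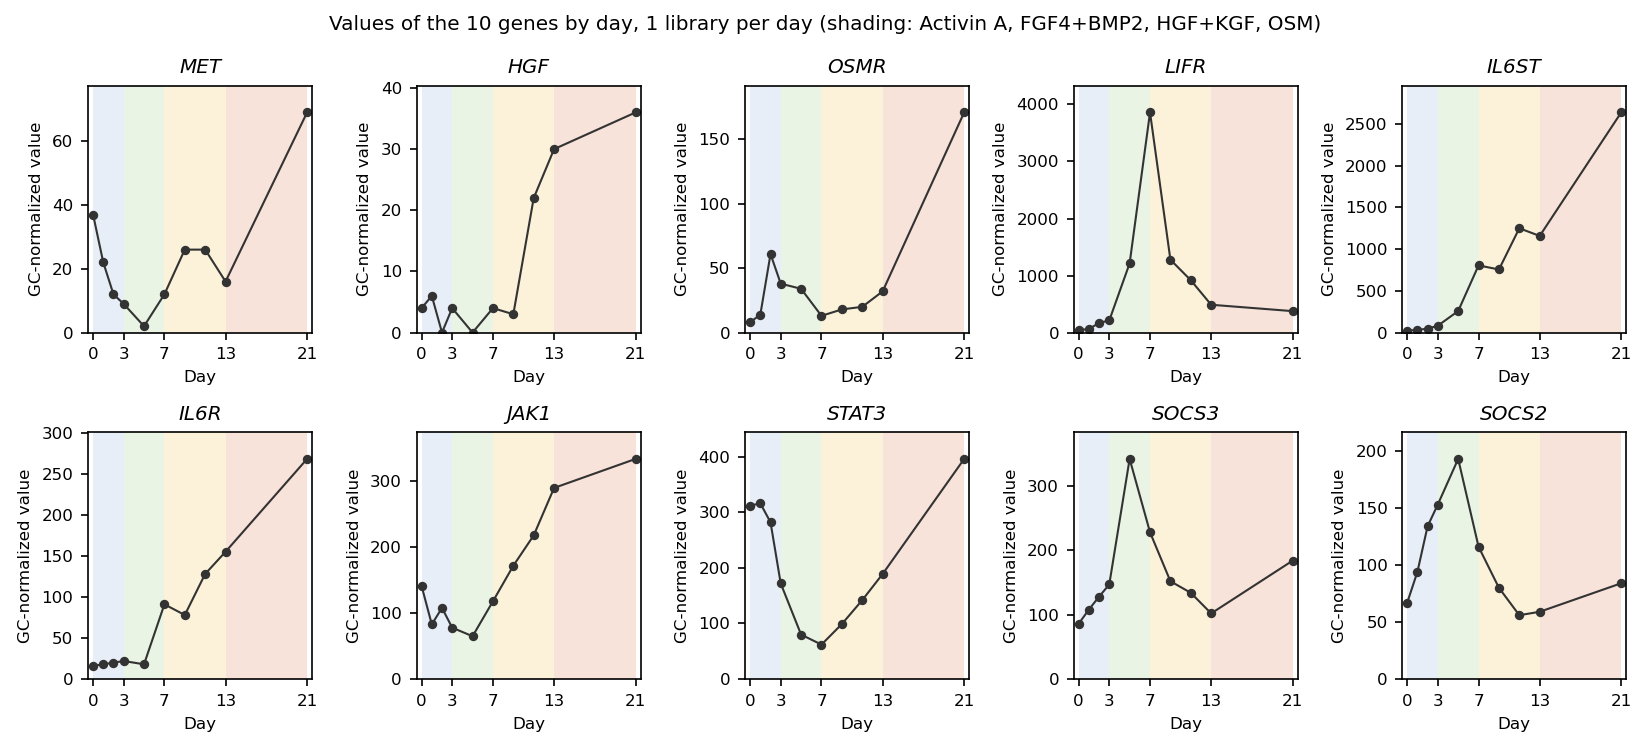
Value of each of the 10 genes (vertical axis, GC-normalized score, scale set per gene from 0) by day of culture (horizontal axis), 1 library per point, shaded by culture step. LIFR peaks on day 7, SOCS3 and SOCS2 on day 5, and the other 7 genes are highest on day 21.

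By step, the 10 genes were counted as follows. With Activin A, 3 of 6 counted rose (LIFR, IL6ST and SOCS2) and 0 fell, where 11.1% of all genes counted rose and 9.07% fell. With FGF4 and BMP2, 3 of 7 rose (LIFR, IL6ST and IL6R) and 1 fell (STAT3), against 13.2% and 12.8% of all genes. With HGF and KGF, 2 of 7 rose (JAK1 and STAT3) and 2 fell (LIFR and SOCS3), against 9.65% and 8.21%. With OSM, 4 of 9 rose (MET, OSMR, IL6ST and STAT3) and 0 fell, against 8.57% and 9.08%. LIFR and IL6ST with Activin A, IL6R with FGF4 and BMP2, and MET and OSMR with OSM passed the minimum only through the day on which they were high, so the counts of genes that rose in these 3 steps are not read against the background. Of the 9 counted, LIFR alone had a negative difference.

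**Figure D3:**
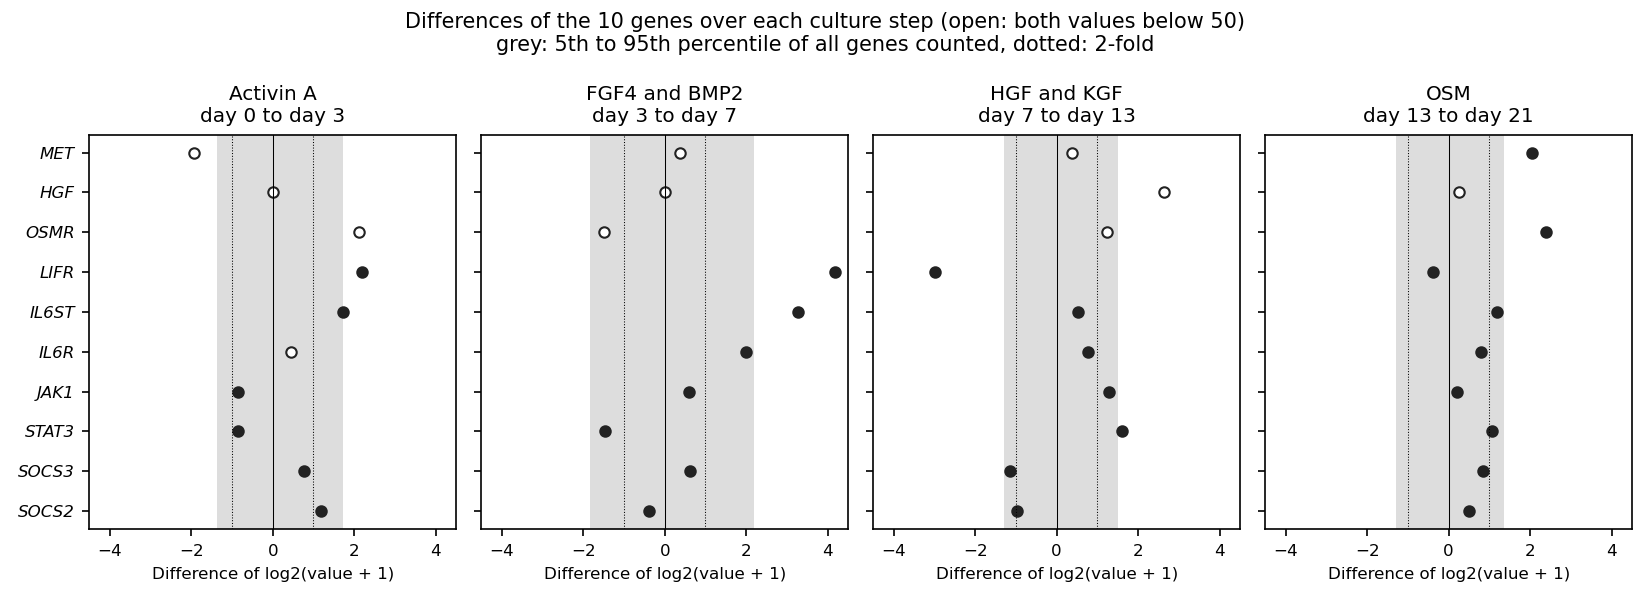
Difference in log2(value + 1) between the last and first day of each of the 4 culture steps (horizontal axis) for the 10 genes (rows), with the 5th to 95th percentile of all genes counted in grey and dotted lines at 2-fold. Open points, both values below 50, were not counted. LIFR lies at 4.18 in the FGF4 and BMP2 step and at -2.98 in the HGF and KGF step. OSMR and MET lie right of the grey band in the OSM step, but were counted only through their day 21 values. They are not read against the band.

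The other genes of the pathways were taken from 9 lists of 110 genes, of which 82 were in the table. With HGF and KGF 15 of 61 counted rose and 5 fell, 24.6% and 8.2% of them against 9.65% and 8.21% of all genes counted. With OSM 13 of 66 rose and 7 fell, 19.7% and 10.6% against 8.57% and 9.08%. The shares that fell were close to those of all genes. Genes that passed the minimum only through their high day add to the shares that rose and to those that fell. With Activin A 3 of 52 rose and 6 fell, 5.77% and 11.5% against 11.1% and 9.07% of all genes. With FGF4 and BMP2 14 of 57 rose and 10 fell, 24.6% and 17.5% against 13.2% and 12.8%. The share that rose was 24.6% both with FGF4 and BMP2, before HGF or OSM by the scheme, and with HGF and KGF. The shares of all genes that rose in these steps were 13.2% and 9.65%, so the equal figures are not read further. The median log2 difference of all genes counted was between -0.06 and -0.04 in every step.

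Around MET, the proteases that activate HGF moved in different directions. PLAT, the tissue plasminogen activator, rose in both late steps, from 31 on day 7 to 154 on day 13 and 1490 on day 21. PLAU, the urokinase, fell from 246 on day 7 to 10 on day 13. These were the only genes that rose or fell in those steps among 7 of 8 found on this list. Of the 7, 6 were counted with HGF and KGF and 5 with OSM. With HGF and KGF, PLAT was counted only through its day 13 value and PLAU only through its day 7 value. On the list of MET adaptors with its sister ligand and receptor, 9 genes were found, without the receptor MST1R. All 9 were counted in both late steps, and in each 2 rose and 0 fell. MST1, which encodes the HGF-like protein of hepatocytes, rose from 119 to 522 and 1434 on days 7, 13 and 21. LRIG1, an inhibitor of receptor kinases, rose from 16 to 159 and 331 on the same days. With HGF and KGF it was counted only through its day 13 value. Of all genes counted 9.65% rose and 8.21% fell with HGF and KGF, and 8.57% and 9.08% with OSM. The small counts of both lists are not read against those shares.

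Of 11 genes that respond to ERK signalling counted with HGF and KGF, 1 rose and 3 fell, with a list median of -0.84. Of all genes counted 9.65% rose and 8.21% fell, so the count that rose was near that of all genes. DUSP4, DUSP5 and SPRY4, all of them feedback inhibitors, fell and EGR1, an immediate early factor, rose. DUSP5 was 251 on day 7 and 49 on day 13, and DUSP4 was 72 and 16. Both were counted only through their day 7 values, so the count that fell is not read against its share. With OSM 4 of 9 fell (SPRY2, SPRY4, ETV5 and EGR1) and 0 rose, with a median of -0.83. Of all genes counted 9.08% fell and 8.57% rose in that step. All 4 that fell were counted only through their day 13 values, so their count is not read against that share. SPRY2 was 157 on day 13 and 47 on day 21. EGR1 was 80 on day 7, 194 on day 9, 19 on day 11, 219 on day 13 and 47 on day 21, a spread within the HGF and KGF medium as wide as its differences between steps.

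Among the gp130 family, only IL11 and CLCF1 of 8 ligand genes were in the table and neither reached 50, with highest values of 36 and 38. Of 9 other cytokine receptors found, 6 were counted with HGF and KGF, where 2 rose, and 7 with OSM, where 1 fell. IL11RA, a further partner of gp130, rose from 37 on day 7 to 82 on day 13, counted only through the latter. LEPR, the leptin receptor, rose from 84 to 254 over the same days and fell to 118 by day 21. JAK2 alone of the 6 other JAK and STAT genes counted with OSM rose, from 22 to 70. It was counted only through its day 21 value. Of 12 other SOCS, PIAS and phosphatase genes found, 8 were counted with HGF and KGF and 7 with OSM. SOCS4 fell with HGF and KGF from 131 to 41, counted only through its day 7 value. SOCS6 fell with OSM from 162 to 72, and no gene of this list rose in these steps. Of all genes counted 9.65% rose and 8.21% fell with HGF and KGF, and 8.57% and 9.08% with OSM. Counts this small are not read against those shares.

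Of the genes known to respond to STAT3, 2 of 12 counted rose with OSM and none fell, with a median of 0.53. Of all genes counted 8.57% rose and 9.08% fell. ICAM1 was counted only through its day 21 value, so the count that rose is not read against that share. CEBPD, a factor of the acute phase response, was 8 on day 7, 52 on day 13 and 187 on day 21, and ICAM1, an adhesion molecule, was 20 on day 13 and 73 on day 21. With HGF and KGF 3 of 8 rose, where 9.65% of all genes counted did. These were FOS from 12 to 80, CEBPD, and BCL6, a transcriptional repressor, from 102 to 275. FOS and CEBPD were counted there only through their day 13 values, so that count is not read against the share of all genes.

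The liver acute phase genes encode secreted proteins, many of them under gp130 control, and had the highest median of the pathway lists in the OSM step. Of 24 listed 11 were found. No gene of the table had a second-highest value below 26, so listed genes high on day 21 alone may be missing. With OSM 7 of 11 rose and 1 fell, with a median of 2.83, where 8.57% of all genes counted rose and 9.08% fell. HP, C3 and CFB were counted only through their day 21 values, so neither the count that rose nor the median is read against all genes. The genes that rose were A2M, a protease inhibitor, from 120 to 4858, FGG, a fibrinogen chain, from 66 to 1327, C3, a complement factor, from 18 to 299, and HP, which encodes haptoglobin, from 4 to 74, with SERPINA1, HPX and CFB. ITIH4 fell from 111 to 40, counted only through its day 13 value. With HGF and KGF, before OSM by the scheme, 6 of 8 counted rose, with a median of 1.18, against 9.65% of all genes. SERPINA1 went from 56 to 2640, A2M from 12 to 120 and HPX from 70 to 348. ITIH4 went from 47 to 111, FGA from 1554 to 3428 and TIMP1 from 118 to 249. A2M and ITIH4 were counted there only through their day 13 values, so that count and median are not read against all genes. FGA and FGB were already at 1554 and 4866 on day 7, and they sat at bands shared by libraries later, FGB at 4866 from day 7 to 11. ALB rose too, and PTPRC, a leukocyte gene, was listed at 0 on day 13 and at 65 on day 21. PTPRC had also been 39 on day 0 and 18 on day 2, so its value alone cannot tell whether leukocytes were present. The part of maturing hepatocytes and of other cells in these values was not tested.

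**Figure D4:**
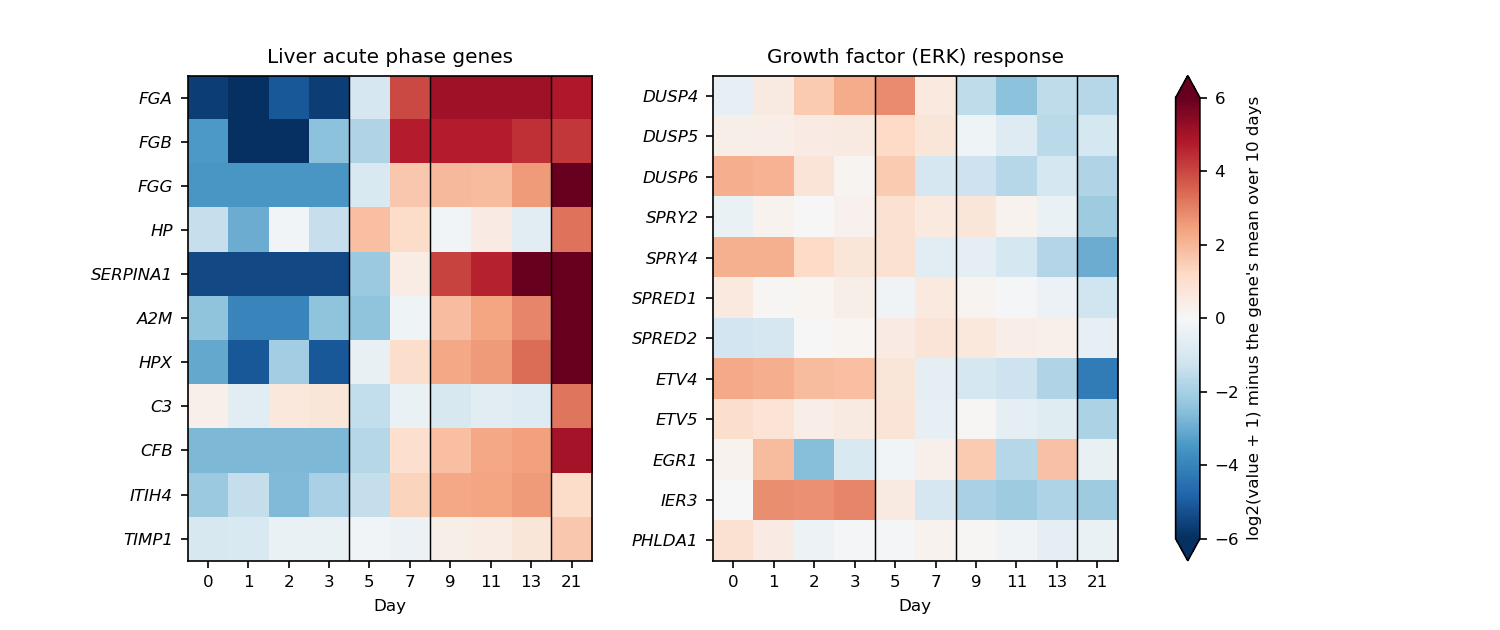
Log2(value + 1) minus the gene's mean over the 10 days (colour, capped at 6 in either direction) for 11 acute phase genes and 12 genes of the ERK response (rows) by day (columns, evenly spaced), with lines between the culture steps. FGG, A2M, C3 and CFB are highest on day 21, while SPRY4 and ETV5 are lowest on that day.

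For 9 of the 10 genes, HGF being too low, genes of like course were found by Pearson's r of log2(value + 1) over the 10 libraries among 8479 genes, a description in which all genes share libraries and time. LIFR was most like FAM118A and KRT19, a keratin of bile duct cells and hepatoblasts (both r = 0.98), and KRT19 was 266 on day 0, 3861 on day 7 and 1157 on day 21. IL6ST was most like BET1L, ABHD15 and CTSB, a lysosomal protease (r = 0.99 each). IL6R was most like C1QTNF6, CYB5R3 and CFB (r = 0.98 each), and JAK1 like MPI, KIRREL and DDR2, a collagen receptor (0.98, 0.98 and 0.97). STAT3 had r = 0.95 with CBX6 and with C14orf132. SOCS3 was most like TNFRSF19 (0.97), SOCS2 like OSGIN2 (0.95), MET like HIVEP2 (0.94) and OSMR like PDE4DIP and RTN4 (0.93 each). Among the 10 genes themselves, IL6ST and IL6R had r = 0.93, while LIFR and STAT3 had r = -0.85.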

How the data were processed

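Bulk RNA-seq of 10 libraries, 1 per day, was analysed. The authors aligned reads with Bowtie2 2.2.0 and RSEM 1.2.17, normalized gene values for GC content with EDASeq and deposited whole numbers for 12125 genes. These deposited values are scores and not counts: the totals lie within 1.36% of each other and high values fall at shared levels. The methods name the reference as an Ensembl mm10 transcriptome, mm10 being a mouse build, for these human reads. The processing notes of the submitters list mm10 and hg19, and which build the intervals follow is not given in the sources used here. Only 3 of the 10 genes' intervals overlap their interval in GENCODE 29. All columns were matched to samples by name.

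Differences of log2(value + 1) were called at 1 with a larger value of at least 50, without a test or p-value. Symbols, lists, motif and markers were chosen with earlier results of these data known. Text names all 10 genes, list genes past 2-fold in the late steps (at most the 4 largest per list and step), marker genes set beside a result, and like-course genes with a range of at least 1. Further genes were picked once their values were known. One gene of like course is not reported here. Of the marker lists not given in the report, the sum of 5 pluripotency genes was 9433 on day 0 and 175 on day 21, that of 5 definitive endoderm genes 22 on day 0 and 21686 on day 3, and that of 3 cholangiocyte genes 3938 on day 7 and 3077 on day 21. The code was tested on simulated data. Alternatives were pseudocounts of 0.1 and 10, median of ratios scaling, minimums of 0 and 200, a 4-fold limit, and day 11 or the mean of days 9, 11 and 13 for day 13. Python 3.11.15, numpy 2.4.6, pandas 2.3.3 and matplotlib 3.10.9 were used.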

Additional observations from a re-analysis of the deposited data

How the results depend on the processing

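Of 136 counts recomputed, 96 stayed within 1.5 times and 40 did not, and 0 of 280 single-gene differences changed sign where called, while 34 moved beyond 0.36 on the log2 scale, the SD between days 9 and 11. All counts stayed within 1.5 times with pseudocounts of 0.1 or 10 and with median of ratios scaling, which shifted a step by at most 0.09. In every library 10 genes stood at the maximum of 18734, and the median was 82, or 81 on day 21. With values so alike in spread, such scaling could change little, and its result is no check on the libraries. Without a minimum, the 10 genes gave 4 higher with HGF and KGF, 1 lower with Activin A, 2 lower with FGF4 and BMP2 and 1 higher between days 9 and 11, and the listed pathway genes gave 11 higher with Activin A, 22 higher and 16 lower with FGF4 and BMP2, 8 lower with HGF and KGF, 11 lower with OSM and 1 higher between days 9 and 11. With a minimum of 200, the 10 genes gave 1 higher with Activin A, 0 lower with FGF4 and BMP2, 1 higher with HGF and KGF and 2 higher with OSM, and the pathway genes gave 2 lower with Activin A, 7 higher and 6 lower with FGF4 and BMP2, 8 higher and 2 lower with HGF and KGF, 2 lower with OSM and 0 lower between days 9 and 11. At a log2 difference of 2, the 10 genes gave 1 higher with Activin A, 0 lower with FGF4 and BMP2, 0 higher and 1 lower with HGF and KGF and 2 higher with OSM, and the pathway genes gave 1 lower with Activin A, 9 higher and 3 lower with FGF4 and BMP2, 8 higher and 3 lower with HGF and KGF, and 8 higher and 1 lower with OSM. These follow from the number of genes such limits admit.

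With day 11 in place of day 13, 1 of the 10 genes rose with HGF and KGF and 1 fell with OSM (LIFR, -1.29), and 22 pathway genes rose with OSM. With the mean of days 9, 11 and 13, 1 rose and 1 fell with HGF and KGF, 1 fell with OSM, and 20 pathway genes rose with OSM. There JAK1 gave 0.90 in the HGF and KGF step and IL6R 1.205 in the OSM step. Over all alternatives MET ranged from 1.37 to 2.13 and OSMR from 2.11 to 3.03 in the OSM step, and LIFR from -2.98 to -2.07 in the HGF and KGF step. No paired analysis was possible because each day has 1 library. The methods state an average depth, but the scores keep no counts per library, so no counting error can be set beside values under 50, such as those of HGF and MET.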

Other observations

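Other genes on the lists moved before HGF or OSM was present. GHR, the growth hormone receptor that SOCS2 dampens, was 8 on day 3 and 80 on day 7, and reached 184 on day 21 while SOCS2 was 116 on day 7 and 84 on day 21. HPN, which encodes hepsin, a protease that activates HGF, was 26 on day 3, 254 on day 7 and 454 on day 21. LRIG1 was 514 on day 0 and 16 on day 7 before its later climb. SOCS1, a further inhibitor of JAK kinases, was 70 on day 0, 100 on day 1 and 19 on day 3, and stayed below 50 afterwards. Of the 12 ERK response genes, 6 fell with FGF4 and BMP2, namely DUSP4, DUSP6, SPRY4, ETV4, ETV5 and IER3, and EGR1 rose. All 12 were counted, and of all genes counted 12.8% fell and 13.2% rose in that step. ETV4 was counted only through its day 3 value and EGR1 only through its day 7 value.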
